A study of Mus musculus with 6 samples.

Results

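The genes described here are the nuclear genes for the subunits of the mitochondrial respiratory chain and of ATP synthase. They were taken from the deposited table by name: every row typed protein_coding whose gene name starts with Nduf, Uqcr, Cox4 to Cox8 or Atp5, together with *Sdha*, *Sdhb*, *Sdhc*, *Sdhd* and *Cyc1*. The rule finds 99 of the 57180 listed genes. The names give 38 subunits of complex I, 8 assembly factors of complex I (the Ndufaf genes), 4 genes of complex II, 9 of complex III, 21 of complex IV and 19 of complex V, the ATP synthase. *Ndufa4* and its paralog *Ndufa4l2* were counted with complex IV, of which the *Ndufa4* protein is a subunit. *Cox7a2l*, a factor that joins complexes into supercomplexes, was also counted there. The rule takes in *Cox5b-ps*, which is named as a pseudogene but typed protein_coding, and a second row named *Atp5po*.

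RNA was sequenced from primary mouse hepatocytes that had been kept for 24 h in 0.1 mM of the saturated fatty acid palmitate. The 3 libraries labelled KO came from STINGLKO mice, made by crossing mice with a floxed STING gene to Albumin-Cre mice, and the 3 libraries labelled LOXP from floxed control mice. Albumin-Cre is active in hepatocytes, and whether other liver cells keep the gene is not shown here. All 6 libraries are from palmitate-treated cells, and untreated cells are not analysed here. The hepatocytes were isolated by collagenase perfusion and cultured in MEM alpha with dexamethasone and serum. The labels do not say whether the 3 libraries of a group came from separate animals or cultures, so p-values measure only the spread between these libraries, which may be technical. The mice were male, on a C57BL/6 background and 8 to 10 weeks old, and the age at hepatocyte isolation is not given separately.

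Complex I takes electrons from NADH and complex II from succinate, and both pass them to coenzyme Q. Complex III carries them on to cytochrome c and complex IV to oxygen, while complexes I, III and IV pump protons across the inner membrane and ATP synthase uses the return of those protons to make ATP. Hepatocytes are rich in mitochondria and use the chain to oxidise fatty acids such as palmitate. Some subunits are encoded by mitochondrial DNA, but most are encoded in the nucleus, made in the cytosol and imported.

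Counted reads per library ran from 14726983 to 18536985, and edgeR's TMM factors from 0.973 to 1.02. *Sting1*, the gene deleted in hepatocytes by the design, had 1.20, 1.12 and 1.51 normalised CPM (counts scaled to the library total) in LOXP1, LOXP2 and LOXP3 and 1.53, 1.24 and 0.875 in KO1, KO2 and KO3. Its groups overlapped, with a log2 fold change of -0.08 (SE 0.30, adjusted p = 0.883) by edgeR's quasi-likelihood test, so the libraries are called by their labels. These *Sting1* values rest on 15 to 24 counts in a library. By RT-PCR, the study found Sting mRNA in control hepatocytes and reports that the knockout lost it. Of the 12 hepatocyte markers listed, 11 were found by name. They summed to 10372 to 10791 FPKM (counts scaled to gene length and library total) in LOXP and 8951 to 9099 in KO. Of these 11, 8 were lower in KO (72.7%, against 11.6% of all genes tested). Summed macrophage markers ran from 65.6 to 79.7 FPKM in LOXP and from 48.4 to 57.1 in KO, and cholangiocyte markers from 124 to 145 and from 65.7 to 77.0. Few genes carried these sums: of the 11 macrophage markers tested, *Cd68* and *Mpeg1* were lower in KO, 0 were higher and 4 lay above zero, and of the 5 cholangiocyte markers tested, *Cldn4*, *Sox9* and *Spp1* were lower and *Krt19* was higher at 0.82 (SE 0.25, adjusted p = 0.0479). Endothelial markers (29.3 to 31.1 and 27.1 to 29.5 FPKM), stellate cell markers (6.70 to 7.51 and 7.36 to 8.26) and lymphocyte markers (0.0460 to 0.101 and 0.0240 to 0.0486, with 7 of 8 at 0 in every library) had overlapping groups. These markers move with the groups in which the respiratory chain genes are compared below, and their part in those comparisons was not tested.

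Most respiratory chain genes differed little between the groups, and those that passed the test were all lower in KO. Of the 99 genes, 90 had enough counts to be tested, and 9 of the 90 (10.0%) were lower in KO at an adjusted p under 0.05, against a background of 11.6% of all 14151 genes tested. No member was higher, against a background of 11.5%. The 9 were the complex I subunits *Ndufb9*, *Ndufa6*, *Ndufb1*, *Ndufa8* and *Ndufa3*, the assembly factor *Ndufaf3*, the complex IV genes *Cox7a2* and *Ndufa4l2*, and the ATP synthase subunit *Atp5mk*. At an unadjusted p under 0.05, edgeR put 16 members lower and 1 higher, against 18.0% and 17.9% of all genes, and DESeq2 put 13 lower and 1 higher. The count of 9 fell to 5 without LOXP3 and to 5 without KO3, and without LOXP2, *Atp5f1a* was called higher. Lower calls over all genes fell as well, from 1641 of 14151 to 1208 of 14424 without LOXP3 and 1148 of 14422 without KO3.

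The difference was small for most of them. The 95% interval of the log2 fold change lay within 0.5 of zero on both sides for 78 of the 90 members (86.7%), against 48.0% of all genes tested. The median SE was 0.0824 for the members and 0.115 for all genes. The same share was 89.5% for cytosolic ribosomal protein genes and 93.8% for citric acid cycle genes. It was 76.9% for mitochondrially encoded subunits and 60.9% for assembly factors outside the name rule. The median log2 fold change over the 90 members was -0.05, beside 0.00 over all genes tested, and 62 of 90 (68.9%) lay below zero, against 50.3% of all genes. That share fell to 57.8% when FPKM values were compared without TMM factors, where the median of all genes was 0.02 to 0.03. The groups did not overlap, with KO below LOXP, for 20 members (22.2%, background 20.3%), and with KO above for 6 (6.67%, background 20.4%). Replicates lay close together: the median coefficient of variation within a group was 6.09% for the members at a median of 923 mean counts, and 9.13% for all genes at a median of 357. By the criteria in the study's methods (absolute log2 fold change above 1, adjusted p under 0.05 and mean FPKM above 1 in a group), 2 members were called, *Ndufaf3* and *Ndufa4l2*, both lower, against a background of 1.49% lower, 0.558% higher and 2.05% in either direction.

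**Figure D1:**
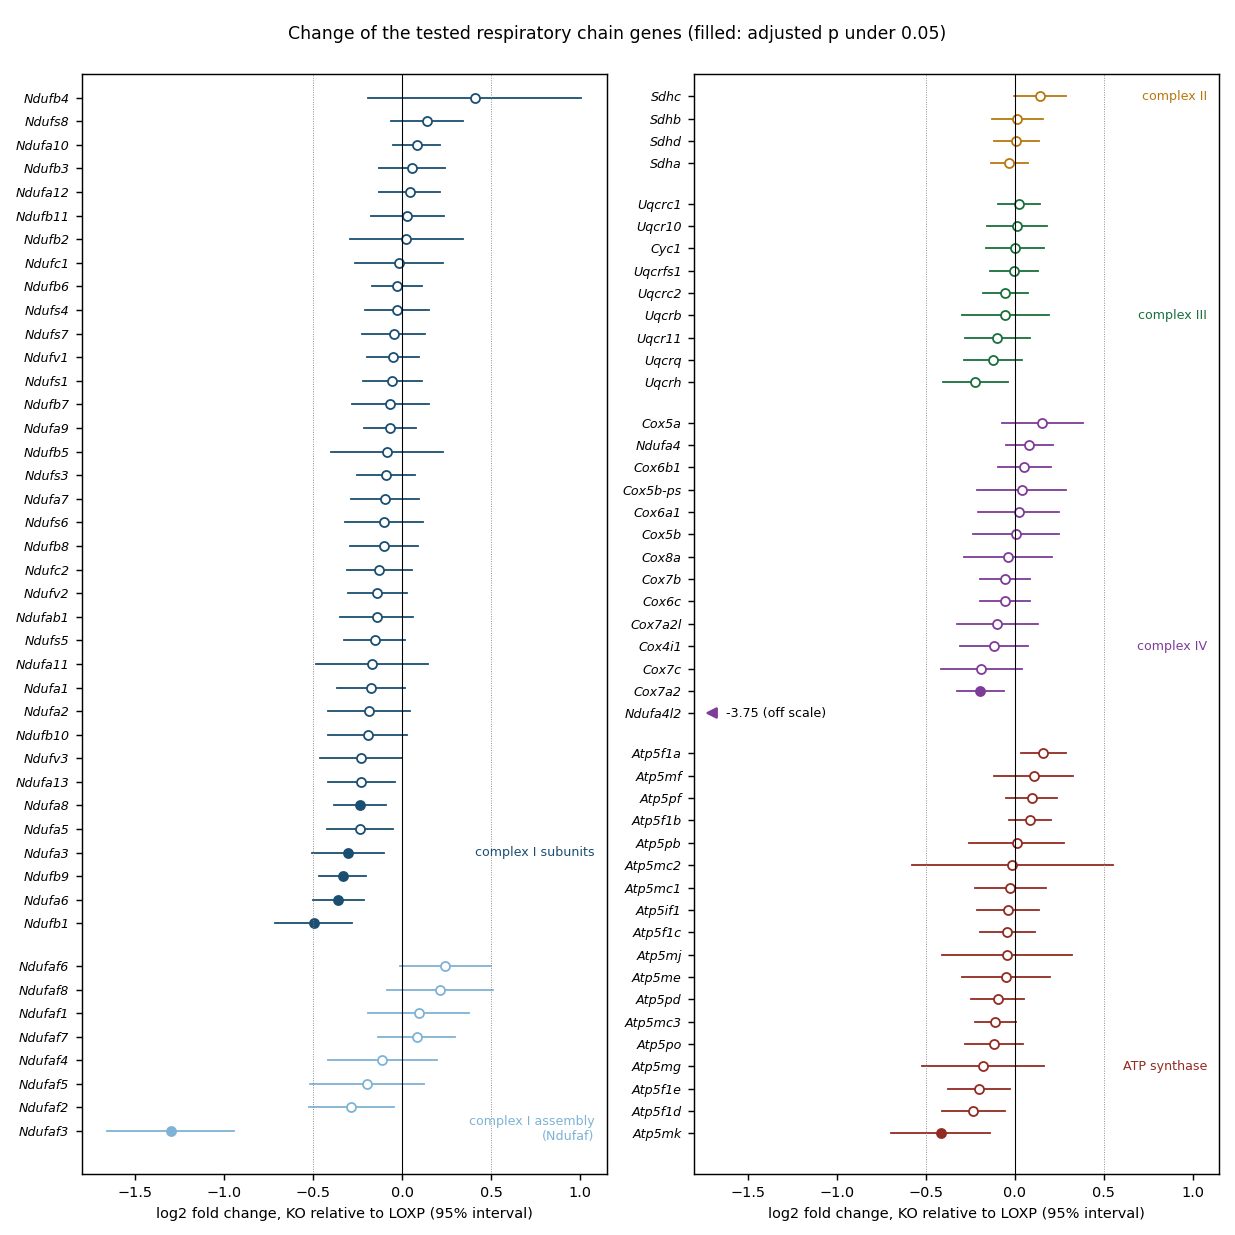
Log2 fold change of KO relative to LOXP (x axis) with its 95% interval for the tested genes named on the y axis, by complex. Filled points are the 9 genes with an adjusted p under 0.05, all left of zero. Dotted lines mark 0.5 on either side, and *Ndufa4l2* at -3.75 lies off the scale.

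Steady levels differed widely between the complexes. The median mean FPKM of the tested genes was 17.6 for complex I subunits, 3.78 for the Ndufaf assembly factors, 48.1 for complex II, 51.9 for complex III, 50.7 for complex IV and 22.5 for ATP synthase. The highest member was *Atp5f1b*, the catalytic beta subunit of ATP synthase, at 186 FPKM. It was followed by *Cox6a1* (180.0), *Atp5f1a* (139), *Cox8a* (126) and *Uqcrfs1* (125). These levels depend on the length used. The FPKM values divide by a length that is longer than the annotated transcript for most members, with a median of 2670.5 bases against 693.5, and more than 3 times the transcript for 54 of the 90. The annotated length is the median over a gene's protein-coding transcripts, so short transcripts lower it and raise the ratio. For *Ndufs1*, at a median of 651 bases, the ratio was 17.1. Per kilobase of the annotated transcript instead, the median normalised CPM was 63.8 for complex I subunits, 12.1 for the assembly factors, 139 for complex II, 189 for complex III, 129 for complex IV and 136 for ATP synthase. On both scales the assembly factors were lowest and the complex I subunits next.

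**Figure D2:**
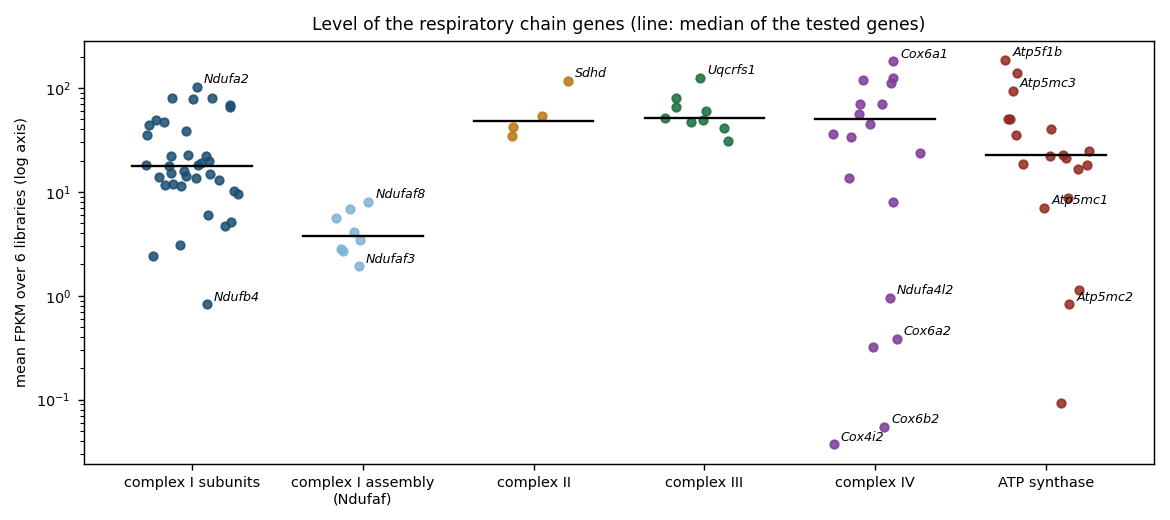
Mean FPKM over the 6 libraries (log axis) of each gene with any count, by complex; the line is the median of the tested genes. The assembly factors lie lowest, at a median of 3.78, and *Atp5f1b* highest at 186.

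Complex I subunits, 37 of the 90 tested genes, held 5 of the 9 lower calls. All 5 were accessory subunits, as most of its nuclear-encoded subunits are. Its core subunits had overlapping groups, as did most of the 37. The groups were apart for 10 with KO lower (27%, background 20.3%) and 1 with KO higher (2.7%, background 20.4%). Of the 37 tested, 5 were lower (13.5%, background 11.6%) and 0 higher (edgeR; unadjusted, 8 lower and 0 higher), and 30 had a log2 fold change below zero, with a median of -0.10. Compared as FPKM without TMM factors, 26 were below zero with a median of -0.06. The hydrophilic arm, which holds the flavin, the iron-sulfur clusters and the NADH site, had 1 lower of 16 (6.25%, background 11.6%) and a median of -0.08. The membrane arm, which holds the proton channels, had 4 lower of 21 (19%, background 11.6%) and a median of -0.13. The difference between the arms was not tested.

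*Ndufb9* (ENSMUSG00000022354, chromosome 15 from 58805605 to 58811337) and *Ndufa6* (ENSMUSG00000022450, chromosome 15 from 82234341 to 82238523) are accessory subunits of the LYR family, which bind the mitochondrial acyl carrier protein. The first sits in the membrane arm and the other in the hydrophilic arm. Positions follow the deposited table, on GRCm39 per the submitters' processing notes. *Ndufb9* had 105, 102 and 107 CPM in LOXP1, LOXP2 and LOXP3 and 80.6, 84.0 and 84.0 in KO1, KO2 and KO3. *Ndufa6* had 53.0, 53.1 and 54.2 CPM in the LOXP libraries and 40.7, 42.8 and 41.6 in the KO libraries. For both genes every KO library lay below every LOXP library, with a gap wider than the range within either group. The log2 fold change was -0.33 (SE 0.058, adjusted p = 0.0046) for *Ndufb9*, 20.7% lower, and -0.36 (SE 0.063, adjusted p = 0.00485) for *Ndufa6*, 22% lower, by edgeR's quasi-likelihood test. The acyl carrier protein itself, *Ndufab1*, had 23.2, 20.4 and 21.4 CPM in LOXP and 20.2, 18.5 and 20.2 in KO, at -0.14 (SE 0.09, adjusted p = 0.291).

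*Ndufb1* (ENSMUSG00000113902, chromosome 12 from 101934349 to 101943327), a small membrane-arm subunit, had 17.6, 16.9 and 19.0 CPM in LOXP and 12.4, 12.3 and 13.2 in KO. The groups were apart, and its log2 fold change of -0.50 (SE 0.095, adjusted p = 0.00733), or 29.1% lower, was the largest among the subunits of the complex. It overlaps *Cpsf2*, which had a mean of 1684 counts against 243 for *Ndufb1* and a log2 fold change of 0.18. The strand setting of the counting is not given in the sources used here, so reads of overlapping genes cannot be told apart. The calls of *Ndufb9*, *Ndufa6* and *Ndufb1* held in all 17 alternatives of test, scaling, filter, offset and left-out library.

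*Ndufa8* (ENSMUSG00000026895, chromosome 2 from 35926338 to 35939418), a subunit on the intermembrane space side held by disulfide bonds, had 74.0, 73.3 and 79.0 CPM in LOXP and 64.3, 65.7 and 61.9 in KO, at a log2 fold change of -0.24 (SE 0.065, adjusted p = 0.0313). *Ndufa3* (ENSMUSG00000035674, chromosome 7 from 3620372 to 3623326), a small single-span subunit named after its values were seen, had 29.0, 31.2 and 33.9 CPM in LOXP and 23.8, 26.5 and 25.8 in KO, at -0.30 (SE 0.088, adjusted p = 0.038). The groups did not overlap for either gene, and the gap between them was wider than the range within either group for *Ndufa8* and narrow for *Ndufa3*. The adjusted p of *Ndufa8* was 0.0550 without LOXP2, 0.0992 without LOXP3, 0.0791 without KO1, 0.0726 without KO2 and 0.0990 without KO3. That of *Ndufa3* was 0.0821, 0.117, 0.135, 0.0752 and 0.0909 without the same libraries. With the filter lowered to 1 count over the 6 libraries, the adjusted p was 0.0581 for *Ndufa8* and 0.0739 for *Ndufa3*, and DESeq2 gave 0.0539 for *Ndufa3*. The calls held in 11 and 10 of 17 alternatives. *Ndufa3* overlaps *Tfpt*, which had a log2 fold change of -0.06.

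**Figure D3:**
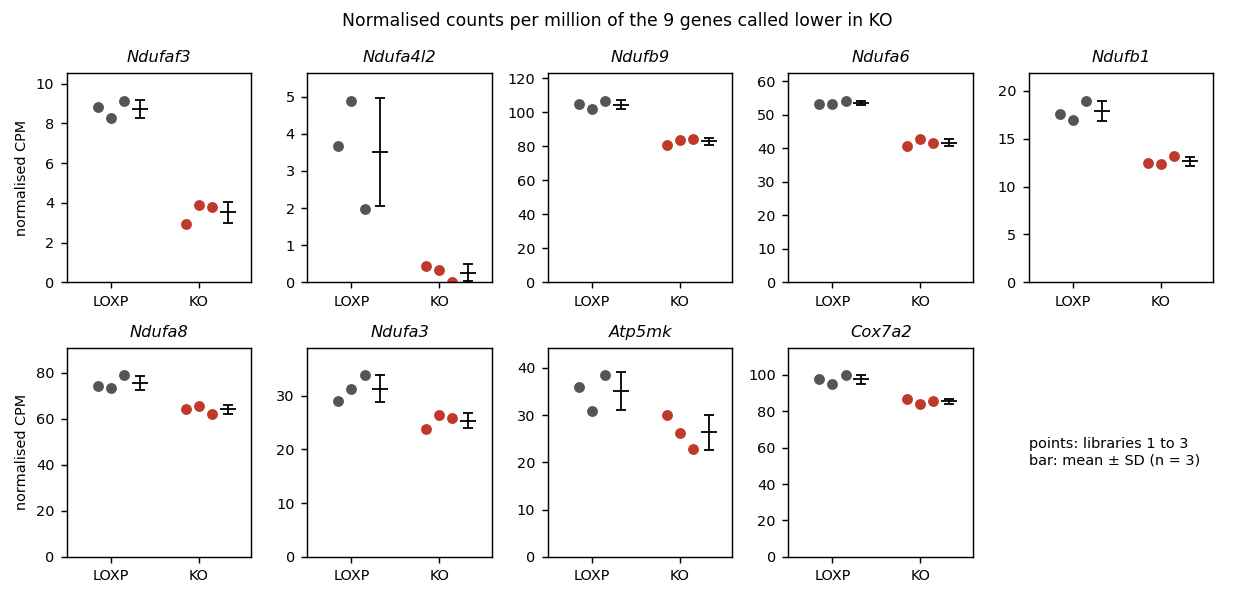
Normalised CPM (y axis, from 0) of the 9 genes lower in KO in each library, with the mean and SD of each group (n = 3). Every KO point lies below every LOXP point in each panel, with the widest relative gap for *Ndufa4l2* and *Ndufaf3*.

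Core subunits that carry the electrons had differences within the spread between libraries. *Ndufs1*, which binds iron-sulfur clusters, had 110.4, 112 and 106 CPM in LOXP and 115, 97.5 and 104 in KO. *Ndufv1*, which binds the flavin and NADH, had 76.7, 82.2 and 83.2 and 78.9, 79.0 and 75.5 CPM. The groups of both genes overlapped, and the 95% intervals of the log2 fold change were -0.22 to 0.11 for *Ndufs1* and -0.20 to 0.09 for *Ndufv1*. The most abundant subunit by FPKM, *Ndufa2* (103 FPKM), had 54.7, 67.2 and 67.2 CPM in LOXP and 50.4, 56.9 and 58.6 in KO, at -0.19 (SE 0.10, adjusted p = 0.22). The lowest tested subunit, *Ndufb4*, had 1.33 to 2.24 CPM in LOXP and 2.10 to 2.49 in KO, at 0.41 (SE 0.26, adjusted p = 0.308). It had 190 counts over all libraries, while its near-identical copies *Ndufb4b* and *Ndufb4c* had 3311 and 747, so its level is uncertain. The same holds to a lesser degree for *Ndufab1* (1989 counts, its pseudogene 2573), *Ndufa12* (3896 and 1595) and *Ndufs5* (2814 and 1319).

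Of the 8 Ndufaf assembly factors, 1 was lower (12.5%, background 11.6%) and 0 higher (edgeR; unadjusted, 2 lower and 0 higher), and 4 had a log2 fold change below zero. Their median was -0.02, and it turned to 0.02 and 0.03 with FPKM values without TMM factors and to values above zero without LOXP1, LOXP3 or KO2 (0.02, 0.00 and 0.00). *Ndufaf3* (ENSMUSG00000070283, chromosome 9 from 108442736 to 108444633), which acts with *Ndufaf4* early in the assembly of the hydrophilic arm, had 140, 118 and 139 counts in LOXP and 46, 72 and 65 in KO, or 8.83, 8.25 and 9.15 and 2.93, 3.89 and 3.79 CPM. The highest KO library lay below 4 CPM and the lowest LOXP library above 8. The log2 fold change was -1.30 (SE 0.16, adjusted p = 0.000846), or 59.4% lower, and ran from -1.37 to -0.81 over 17 alternatives, all of them called. Its partner *Ndufaf4* had 21.7, 15.8 and 17.8 CPM in LOXP and 16.1, 16.2 and 19.0 in KO, with overlapping groups and a 95% interval of -0.42 to 0.19. *Ndufaf3* overlaps *Impdh2*, an enzyme of guanine nucleotide synthesis, which had 28.5, 24.2 and 29.8 CPM in LOXP and 41.1, 35.8 and 34.6 in KO and was higher at 0.43 (SE 0.10, adjusted p = 0.0194). The most abundant factors by FPKM, *Ndufaf8* (7.97) and *Ndufaf1* (6.87), had log2 fold changes of 0.21 (SE 0.13, adjusted p = 0.282) and 0.09 (SE 0.12, adjusted p = 0.641).

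Complex II, the only complex of the chain with no mitochondrially encoded subunit, had 0 of 4 genes called in either direction (edgeR). The background was 11.6% lower and 11.5% higher. At an unadjusted p under 0.05 it also had 0, against 18.0% and 17.9% of all genes. *Sdha*, the flavoprotein that oxidises succinate, had 319, 324 and 328 CPM in LOXP and 313, 316 and 321 in KO. *Sdhb*, the iron-sulfur subunit, had 114, 108 and 107 and 104, 114 and 113 CPM. Both genes had overlapping groups and varied little between libraries, with 95% intervals of -0.13 to 0.07 for *Sdha* and -0.13 to 0.16 for *Sdhb*. Of the membrane anchors, *Sdhd* had 139.9, 147 and 144 CPM in LOXP and 141, 150.3 and 142 in KO, with an interval of -0.12 to 0.14. *Sdhc* had 122, 122 and 130.2 and 130.2, 145 and 137 CPM, at 0.14 (SE 0.064, adjusted p = 0.147), and its lowest KO library lay barely above its highest LOXP library. The summed CPM of the complex was 701 ± 7.03 in LOXP and 709 ± 18.9 in KO (SD, n = 3).

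In complex III, 0 of 9 genes were called in either direction (edgeR), against a background of 11.6% lower and 11.5% higher. Unadjusted, 1 was lower and 0 higher, against 18.0% and 17.9% of all genes. The median log2 fold change was -0.05 with 6 of 9 below zero. The Rieske protein gene *Uqcrfs1* had 161, 174 and 178 CPM in LOXP and 165, 175 and 172 in KO. It was the highest of the complex by FPKM. Per kilobase of the annotated transcript, *Uqcrc1*, a core protein, came first at 569 CPM, against 125 for *Uqcrfs1*. That order rests on median transcript lengths of 533 bases for *Uqcrc1* and 1363 for *Uqcrfs1*, and short transcripts can raise such a value. *Cyc1*, which encodes cytochrome c1, had 144, 165 and 166 and 152, 166 and 158 CPM. Groups overlapped for *Uqcrfs1* and *Cyc1*, with intervals of -0.14 to 0.13 and -0.16 to 0.17. *Uqcrq*, a small subunit near the Q site, had 181, 206 and 213 CPM in LOXP and 179, 192 and 179 in KO, at -0.12 (SE 0.072, adjusted p = 0.257). Without LOXP1, its lowest LOXP library, it was called lower at -0.19 (adjusted p = 0.0471). *Uqcrh*, the hinge protein, named after its values were seen, came nearest to a call in the complete fit at -0.22 (SE 0.08, adjusted p = 0.0805). It had 88.9, 93.9 and 106 CPM in LOXP and 84.5, 79.2 and 84.3 in KO, and its groups did not overlap. The table also lists the processed pseudogene *Gm12854* within it, with a mean of 921 counts.

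Complex IV had 2 lower of 14 tested genes (14.3%, background 11.6%) and 0 higher (edgeR; unadjusted, 2 lower and 0 higher). The median log2 fold change was -0.05 with 8 of 14 below zero, and it turned to 0.00 with 7 below zero without KO1. *Cox4i1*, the largest nuclear subunit, had 313, 331 and 346 CPM in LOXP and 320.1, 266 and 326 in KO, where KO2 lay apart from the other two. *Cox5a*, which binds the matrix side, had 119, 95.5 and 127 and 128, 124 and 128 CPM, where LOXP2 lay apart. Their intervals were -0.31 to 0.07 for *Cox4i1* and -0.07 to 0.38 for *Cox5a*, and neither passed the test (adjusted p = 0.359 and 0.306, edgeR). The most abundant subunits by FPKM, *Cox6a1* and *Cox8a*, had log2 fold changes of 0.02 (SE 0.099, adjusted p = 0.902) and -0.04 (SE 0.11, adjusted p = 0.842).

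*Cox7a2* (ENSMUSG00000032330, chromosome 9 from 79662643 to 79667160), the form of subunit VIIa found in liver, had 97.7, 95.2 and 100.1 CPM in LOXP and 86.7, 83.9 and 85.6 in KO. The groups did not overlap, and the difference of -0.19 (SE 0.058, adjusted p = 0.043), or 12.5% lower, was the smallest of the 9. Its call was lost without any 1 of the 6 libraries, with adjusted p values from 0.0593 without LOXP1 to 0.148 without KO2. It was also lost with DESeq2 (0.0689), with the filter at 1 count (0.0774), with the replicate number as a block (0.0508) and on both FPKM scales (0.0509 and 0.0524, limma-trend), so that it held in 6 of 17 alternatives. The supercomplex factor *Cox7a2l* had 142, 119 and 114 CPM in LOXP and 125, 105 and 119.5 in KO, at -0.10 (SE 0.099, adjusted p = 0.53).

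*Ndufa4l2* (ENSMUSG00000040280, chromosome 10 from 127350836 to 127353023), known as a gene induced in hypoxia, had 58, 70 and 30 counts in LOXP1, LOXP2 and LOXP3 and 7, 6 and 0 in KO1, KO2 and KO3. All 3 KO libraries lay below the lowest LOXP library. Every KO count was below the minimum count of 10 of the filter, so that the gene was tested, and counted among the 9, only through its LOXP libraries. The log2 fold change was -3.75 (SE 0.62, adjusted p = 0.00385), or 92.6% lower, and ran from -4.32 to -1.26 over 16 alternatives, smallest on the log2(FPKM + 1) scale. It overlaps *Shmt2*, a mitochondrial serine enzyme, which had a mean of 4839 counts against 28.5 for *Ndufa4l2* and a log2 fold change of 0.13 (SE 0.055, adjusted p = 0.135). *Ndufa4*, its paralog in the complex, had 89.4, 85.3 and 89.2 CPM in LOXP and 92.5, 95.2 and 91.6 in KO. There the KO libraries lay above the LOXP libraries by a narrow margin, at 0.08 (SE 0.058, adjusted p = 0.36). *Ndufa4* stood at 33.7 mean FPKM and *Ndufa4l2* at 0.952.

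The other paralog pairs of complex IV were dominated by 1 member in these hepatocytes. *Cox4i2*, *Cox6a2*, *Cox6b2* and *Cox7a1*, the forms known from lung, muscle and testis, had at most 9 counts in any library and were not tested. *Cox6a2* had 1, 1 and 3 counts in LOXP and 9, 8 and 4 in KO, and *Cox7a1* 3, 4 and 9 and 2, 0 and 3. *Cox6b2* had 3, 6 and 2 counts in LOXP and 3, 0 and 0 in KO, and *Cox4i2* 1, 0 and 3 and 0, 0 and 0. *Cox7b2*, *Cox8b*, *Cox8c* and the complex I row *Ndufb11b* had 0 counts in all 6 libraries, which allows up to 3 counts in each. The second *Atp5po* row had 5 counts, all in KO3. Mean FPKM was 119 for *Cox4i1* against 0.0371 for *Cox4i2*, 180.0 for *Cox6a1* against 0.386 for *Cox6a2*, 111 for *Cox6b1* against 0.0546 for *Cox6b2* and 70.0 for *Cox7a2* against 0.32 for *Cox7a1*. The expressed forms *Cox6b1* and *Cox7b* had log2 fold changes of 0.05 (SE 0.065, adjusted p = 0.596) and -0.05 (SE 0.062, adjusted p = 0.583). *Cox5b* (6383 counts over all libraries) and *Cox5b-ps* (3355) are near-identical, so their split is uncertain, and their log2 fold changes were 0.01 and 0.04.

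ATP synthase had 1 lower of 18 tested genes (5.56%, background 11.6%) and 0 higher (edgeR; unadjusted, 3 lower and 1 higher), and its most abundant subunits were not among the lower genes. *Atp5mk* (ENSMUSG00000071528, chromosome 19 from 47071903 to 47079086), a small subunit tied to the dimer form of the enzyme, had 36.0, 30.8 and 38.5 CPM in LOXP and 30.1, 26.2 and 22.7 in KO. The highest KO library was close below the lowest LOXP library, and the log2 fold change was -0.42 (SE 0.12, adjusted p = 0.0411), or 25.1% lower. Its adjusted p was 0.0919 without LOXP1, 0.127 without LOXP3, 0.111 without KO2 and 0.126 without KO3. It was 0.0805 with the filter at 1 count, 0.0523 with the replicate number as a block, and 0.0733 and 0.0718 on the FPKM scales (limma-trend), and the call held in 9 of 17 alternatives. The gene overlaps *Taf5*, which had a mean of 109 counts and a log2 fold change of 0.01.

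The alpha and beta subunits of the catalytic F1 part had fold changes above zero and its gamma, delta and epsilon subunits below, and none of the 5 passed the test. *Atp5f1a*, the alpha subunit, had 664, 745 and 672 CPM in LOXP and 776, 776 and 771 in KO. The KO libraries lay close together above all LOXP libraries, at 0.16 (SE 0.055, adjusted p = 0.071). It was called higher at 0.21 (adjusted p = 0.0244) without LOXP2, its highest LOXP library, and at 0.20 on both FPKM scales without TMM factors (adjusted p = 0.0267 and 0.0272, limma-trend). *Atp5f1b* had 1186, 1287 and 1277 CPM in LOXP and 1285, 1369.7 and 1322 in KO, with overlapping groups, at 0.09 (SE 0.051, adjusted p = 0.27). *Atp5f1c*, the gamma subunit, stood at -0.04 (SE 0.067, adjusted p = 0.71). The delta subunit *Atp5f1d*, with 175, 201 and 211 CPM in LOXP and 175, 164 and 159 in KO, stood at -0.23 (SE 0.078, adjusted p = 0.0633), and the epsilon subunit *Atp5f1e* at -0.20 (SE 0.076, adjusted p = 0.0961). These 3 were named after their values were seen, and *Atp5f1d* and *Atp5f1e* are, with *Atp5mk*, the 3 genes of the complex that were lower at an unadjusted p under 0.05. Of the 3 genes that encode the same c-ring subunit, *Atp5mc3* had 275 to 294 CPM in LOXP and 258 to 270.4 in KO, at -0.11 (SE 0.05, adjusted p = 0.157). *Atp5mc1* had 61.7 to 73.6 and 65.4 to 72.6 CPM, at -0.02 (SE 0.086, adjusted p = 0.876), and *Atp5mc2* 1.47 to 2.08 and 1.53 to 2.05 CPM, at -0.01 (SE 0.25, adjusted p = 0.98). Per length, *Atp5mc3* led at 93.5 FPKM, against 6.99 for *Atp5mc1* and 0.826 for *Atp5mc2*. The inhibitor *Atp5if1*, which blocks ATP hydrolysis, had 31.3, 35.2 and 32.9 CPM in LOXP and 30.8, 32.9 and 32.9 in KO, with overlapping groups and an interval of -0.21 to 0.14.

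Summed over a complex, the differences were of the size of the spread between libraries except for complex I. Its subunits summed to 1959.5, 2038 and 2097 CPM in LOXP1, LOXP2 and LOXP3 and to 1898, 1926 and 1873 in KO1, KO2 and KO3. The groups of this sum did not overlap. Among all single genes tested, 20.3% had groups apart with KO lower and 20.4% with KO higher. The means of the complex I sum were 2031 ± 68.8 and 1899 ± 26.6 CPM (SD, n = 3), a ratio of 0.935. ATP synthase summed to 3412 ± 123 CPM in LOXP and 3493 ± 55.8 in KO, complex III to 1336 ± 56.0 and 1299 ± 10.6, and complex IV to 1519 ± 68.8 and 1485 ± 30.0. All members together summed to 9113 ± 299 and 8994 ± 90.5 CPM, a ratio of 0.987. The sums were not tested, since the members were chosen with results of these data known. In bulk RNA, fewer cells of a type and less RNA per cell cannot be told apart. Gene by gene, the median deviation of the complex I subunits from their own means was -0.01, 0.06 and 0.10 (log2) in the LOXP libraries and -0.06, 0.00 and -0.06 in the KO libraries. LOXP1 thus lay just below KO2, and without LOXP1 33 of the 37 subunits had a log2 fold change below zero.

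**Figure D4:**
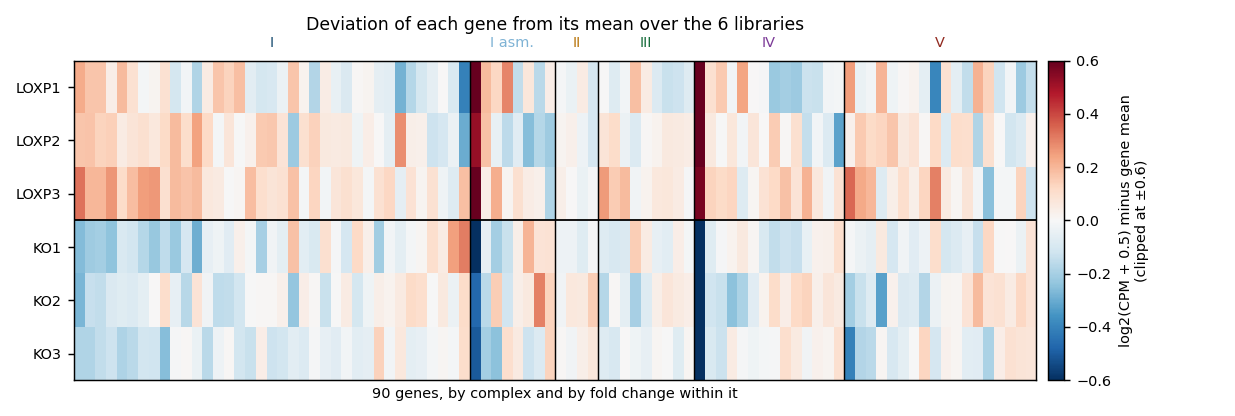
Log2(CPM + 0.5) of each of the 90 tested genes minus its mean over the 6 libraries (color, clipped at 0.6), with libraries in rows and genes in columns by complex and fold change. Outside the called genes at the left of each block, LOXP1 looks unlike LOXP2 and LOXP3 in many columns.

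The promoters of these genes are known to hold sites for NRF1, GABPA, YY1 and ESRRA, factors that regulate nuclear genes of mitochondria. Windows from 250 bases before to 50 after the start of the gene were taken from RefSeq (GRCm38.p6, another build than that of the table) and matched by gene for 78 of the 99 members. On either strand, GCGC followed by any 2 bases and GCGC (NRF1) was found in 26.9% of the member windows and in 6.43% of all 27025 windows, CCGGAAG (GABPA) in 21.8% and 9.12%, AAGATGGC (YY1) in 12.8% and 2.88%, and AAGGTCA (ESRRA) in 11.5% and 4.66%. The last letters of the GABPA string and the first of the YY1 string can overlap in AAG. At least 1 of the 4 was in 55.1% of the member windows and in 20.7% of all. The windows of all genes include genes not expressed here and were not matched to the members in base composition. Whether the difference is particular to respiratory chain genes was not tested. Of the 6 called genes with a window, *Ndufa6* and *Ndufa8* held the NRF1 string and *Ndufa3* the YY1 string, and the windows of the other called genes held none of the 4. A match is only a match of letters.

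The windows below are printed 5′ to 3′ on the strand of the gene, all on the minus strand, with matches in capitals. *Sdha*, with 3 NRF1 strings, and *Cox6a1*, with 2 NRF1 strings and 1 GABPA string, stand for abundant genes with overlapping groups. *Ndufa6* and *Ndufa8* were lower and hold 1 NRF1 string each, and *Ndufaf3*, with a larger decrease, holds no match.
Sdha chr13:74350191-74350490: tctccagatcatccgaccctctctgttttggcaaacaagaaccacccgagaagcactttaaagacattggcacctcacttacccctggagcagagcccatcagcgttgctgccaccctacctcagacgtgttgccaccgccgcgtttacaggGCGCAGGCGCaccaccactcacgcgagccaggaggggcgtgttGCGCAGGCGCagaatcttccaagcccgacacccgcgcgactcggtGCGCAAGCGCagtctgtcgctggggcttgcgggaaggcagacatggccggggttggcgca
Cox6a1 chr5:115348909-115349208: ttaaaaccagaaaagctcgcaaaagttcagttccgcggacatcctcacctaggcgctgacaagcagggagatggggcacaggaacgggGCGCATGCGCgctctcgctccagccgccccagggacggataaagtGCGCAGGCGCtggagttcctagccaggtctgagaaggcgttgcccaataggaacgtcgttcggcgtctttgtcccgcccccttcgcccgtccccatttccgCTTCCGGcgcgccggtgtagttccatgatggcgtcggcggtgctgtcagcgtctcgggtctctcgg
Ndufa6 chr15:82354242-82354541: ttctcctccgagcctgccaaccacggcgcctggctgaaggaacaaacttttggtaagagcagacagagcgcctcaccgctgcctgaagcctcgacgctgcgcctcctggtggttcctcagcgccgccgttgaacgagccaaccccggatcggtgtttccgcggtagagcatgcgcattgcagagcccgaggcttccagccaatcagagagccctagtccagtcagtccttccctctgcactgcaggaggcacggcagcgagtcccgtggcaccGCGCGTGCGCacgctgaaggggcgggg
Ndufa8 chr2:36049289-36049588: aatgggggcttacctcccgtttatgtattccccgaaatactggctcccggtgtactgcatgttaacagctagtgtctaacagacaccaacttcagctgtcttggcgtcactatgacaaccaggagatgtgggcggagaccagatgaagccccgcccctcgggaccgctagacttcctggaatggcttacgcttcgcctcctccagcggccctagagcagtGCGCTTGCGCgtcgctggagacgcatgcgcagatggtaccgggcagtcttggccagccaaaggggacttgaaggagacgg
Ndufaf3 chr9:108567387-108567686: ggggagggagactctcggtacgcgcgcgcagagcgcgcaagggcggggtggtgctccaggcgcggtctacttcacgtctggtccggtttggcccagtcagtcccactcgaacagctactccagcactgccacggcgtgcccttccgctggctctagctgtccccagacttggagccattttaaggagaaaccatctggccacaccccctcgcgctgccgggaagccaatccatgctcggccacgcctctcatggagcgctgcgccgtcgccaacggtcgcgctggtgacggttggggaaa

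Of the factors that act on these promoters and other regulators of mitochondrial genes, 2 of 15 were lower and 2 higher (13.3% each, background 11.6% and 11.5%). *Nrf1* had 26.7, 27.1 and 26.5 CPM in LOXP and 26.3, 25.1 and 23.3 in KO, at -0.10 (SE 0.079, adjusted p = 0.387). *Gabpb1*, the partner of *Gabpa*, had 30.4, 34.7 and 28.7 and 24.1, 23.2 and 25.9 CPM and was lower at -0.36 (SE 0.094, adjusted p = 0.0271), while *Gabpa* stood at 0.19 (SE 0.085, adjusted p = 0.147). *Ppargc1a*, the coactivator PGC-1alpha, had 3.22, 2.52 and 3.82 CPM in LOXP and 1.66, 0.755 and 1.75 in KO and was lower at -1.21 (SE 0.33, adjusted p = 0.03), at a mean of only 0.27 FPKM. *Hcfc1*, a coregulator that binds GABP, had 162, 166 and 167 and 229, 236 and 235 CPM and was higher at 0.50 (SE 0.049, adjusted p = 0.000328). *Pprc1*, a relative of PGC-1alpha, was higher at 0.46 (SE 0.14, adjusted p = 0.0453), with KO3 at 63.9 CPM close to the LOXP libraries. *Esrra* stood at -0.20 (SE 0.067, adjusted p = 0.0596) and *Tfam*, which maintains mitochondrial DNA, at -0.08 (SE 0.08, adjusted p = 0.522). The 4 calls of the list fell to 1 without KO1 or KO2 and to 2 without LOXP2 or LOXP3. Fewer of all genes were called in each of those fits too, and in those named for the lists below.

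Of 46 tested assembly factors outside the name rule, 4 were lower (8.7%, background 11.6%) and 1 higher (2.17%, background 11.5%), with a median log2 fold change of -0.06. *Ttc19*, a complex III factor, had 32.1, 30.2 and 31.9 CPM in LOXP and 24.8, 24.0 and 24.4 in KO, at -0.36 (SE 0.072, adjusted p = 0.00838), and *Nubpl*, which delivers iron-sulfur clusters to complex I, 18.9, 15.7 and 18.6 and 12.4, 12 and 13.5 CPM, at -0.49 (SE 0.11, adjusted p = 0.0142). *Atpaf2*, a factor for the ATP synthase core, had 20.8, 20.1 and 20.1 and 24.3, 26.6 and 26.0 CPM and was higher at 0.34 (SE 0.079, adjusted p = 0.0175). The complex IV factors *Surf1* and *Cox20*, named after their values were seen, were lower at -0.29 (SE 0.078, adjusted p = 0.0291) and -0.69 (SE 0.18, adjusted p = 0.0291). These 5 calls fell to 1 without KO2, to 2 without KO3 and to 3 without LOXP2 or KO1.

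Among electron carriers and enzymes of coenzyme Q synthesis, 2 of 17 were lower and 2 higher (11.8% each, background 11.6% and 11.5%). *Coq8a* had 7.70, 10.3 and 12.8 CPM in LOXP and 5.29, 3.99 and 3.91 in KO, at -1.23 (SE 0.22, adjusted p = 0.005). *Etfdh*, which passes electrons from fatty acid oxidation to coenzyme Q, had 110.5, 94.6 and 103 and 81.6, 80.5 and 73.1 CPM, at -0.39 (SE 0.079, adjusted p = 0.00918). Both were lower with groups apart, while *Coq7* and *Coq5*, named after their values were seen, were higher at 0.23 (SE 0.064, adjusted p = 0.0328) and 0.26 (SE 0.075, adjusted p = 0.041). Cytochrome c, *Cycs*, had 51.2, 43.4 and 44.6 CPM in LOXP and 57.1, 51.6 and 41.3 in KO, with overlapping groups. The 4 calls fell to 2 without any of LOXP2, LOXP3, KO1 and KO2. Of 8 inner membrane carriers, 1 was lower (12.5%, background 11.6%) and 2 were higher (25%, background 11.5%). The calcium-dependent ATP carrier *Slc25a23* was lower at -0.96 (SE 0.11, adjusted p = 0.000719, edgeR). The ADP/ATP exchangers *Slc25a5* and *Slc25a4* were higher at 0.27 (SE 0.046, adjusted p = 0.00442, edgeR) and 0.28 (SE 0.083, adjusted p = 0.0415, edgeR). *Slc25a5* had 474, 474 and 492 CPM in LOXP and 579, 591 and 564 in KO.

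The citric acid cycle, which supplies the NADH and succinate, had 0 lower and 2 higher of 16 genes (12.5% higher, background 11.5%), with a median of 0.05 (edgeR; unadjusted, 0 lower and 3 higher, background 18.0% and 17.9%). *Dlat*, of the pyruvate dehydrogenase complex, had 118, 114 and 116 CPM in LOXP and 146, 141 and 141 in KO, at 0.30 (SE 0.053, adjusted p = 0.00508). *Idh3a* had 72.7, 61.3 and 65.4 and 81.4, 84.6 and 80.7 CPM, at 0.31 (SE 0.077, adjusted p = 0.0229), and the 2 calls fell to 1 in 5 of the 6 fits that left out a library, all but that without LOXP1. Of the 13 mitochondrially encoded subunits, which join the nuclear ones in complexes I, III, IV and V, 1 was lower (7.69%, background 11.6%) and 2 were higher (15.4%, background 11.5%), with a median of 0.04. *mt-Co3*, of complex IV, had 2452, 2282 and 2307 CPM in LOXP and 3369, 3335 and 2998 in KO, at 0.46 (SE 0.058, adjusted p = 0.00105), and *mt-Atp8*, of ATP synthase, was higher at 0.37 (SE 0.056, adjusted p = 0.00234). *mt-Nd6*, of complex I and encoded on the other strand of the mitochondrial genome, had 53.8, 30.8 and 30.9 and 17.8, 17.1 and 13.2 CPM and was lower at -1.27 (SE 0.23, adjusted p = 0.00539). As another large set of short abundant transcripts, 76 cytosolic ribosomal protein genes had 2 lower and 2 higher (2.63% each, against the same background), with a median of 0.02. *Rpl27* was higher at 0.49 (SE 0.071, adjusted p = 0.00192) and *Rpl13a* at 0.32 (SE 0.071, adjusted p = 0.0137), while *Rpl12* and *Rps28*, named after their values were seen, were lower at -0.30 and -0.33.

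**Figure D5:**
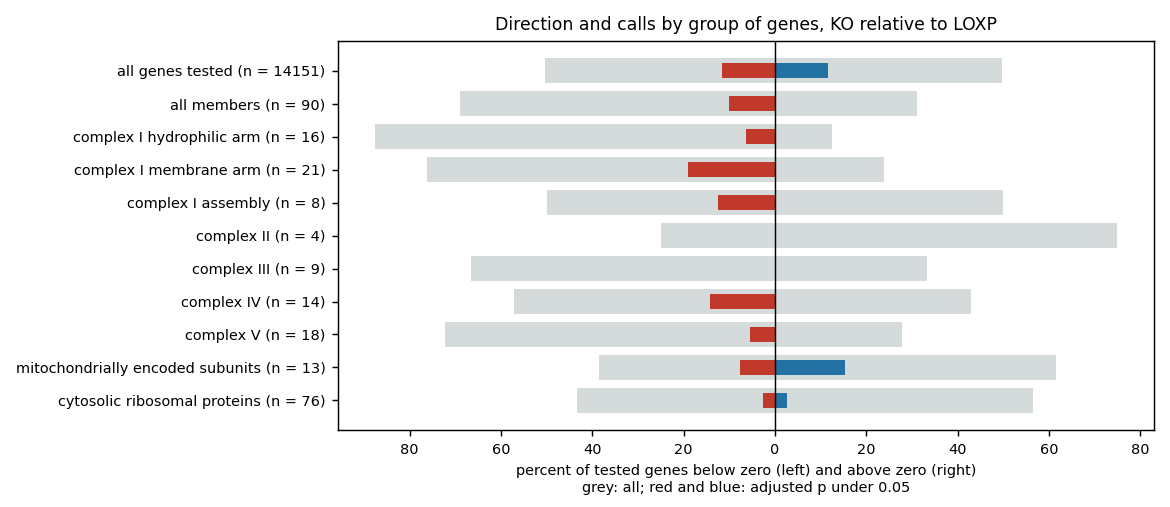
Percent of tested genes with a log2 fold change below zero (grey, left) and above (grey, right) in each group of genes, and percent with an adjusted p under 0.05 (red lower, blue higher). The nuclear respiratory chain groups have no blue bar, and a red bar of up to 4 of 21 genes in the membrane arm but none for complexes II and III, while the mitochondrially encoded subunits and ribosomal proteins have both.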

How the data were processed

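Primary mouse hepatocytes in 2 groups of 3 libraries, grouped by the sample titles, were compared. The authors made libraries with the VAHTS Universal V6 kit, aligned the read pairs by HISAT2 and gave 1 table of 57180 genes, holding counts and FPKM for each library. Per the labels, fastp, StringTie and GRCm39 were also used. Versions, annotation, the counting tool and the strand setting are not given in the sources used here. The deposited counts are unnormalized whole numbers. The deposited FPKM values divide them by 1 length per gene, which differed by at most 0.00253% between libraries, and by the library total.

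Counts were filtered with filterByExpr (minimum count 10), which left 14151 genes, scaled by TMM and tested in R 4.3.3 with the two-sided quasi-likelihood test of edgeR 4.0.16, with group as the only term. Adjusted p values are Benjamini-Hochberg values over all genes tested. CPM values were computed on TMM-scaled library sizes. A group of 3 against 3 allows an exact permutation p of no less than 0.1, which each of the 9 called genes reached. Any gene whose groups do not overlap reaches it, which held for 20.3% of all genes tested with KO lower and 20.4% with KO higher. The members and gene lists were chosen with earlier results of these data known. Replicates differed by more than counting noise (chi-square per degree of freedom 7.66 to 16.3), and the biological coefficient of variation was 0.118. Depth was 14726983 to 18536985 counts per library.

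The rule for named genes took, per complex, up to 3 members with the smallest adjusted p in each direction among those called, the 2 most abundant, the core subunits, the paralogs, Atp5if1 and the untested members, and up to 2 called genes per list. Genes named beyond it were chosen after their values were seen, and 1 member it takes is counted in every total but not reported by name here. Alternatives were DESeq2 1.42.0, RLE and upper-quartile factors, 2 other count filters, the replicate number as a block, each library left out, limma 3.58.1 (limma-trend) on FPKM on the log2 scale with a pseudocount of 1 or 0.1, a length offset, an adjusted p under 0.01 and a log2 fold change criterion of 0.5. A GC offset and counts summed over near-identical copies were added after the data were seen. The steps were tested on simulated data. Transcript lengths were medians over a gene's protein-coding transcripts in GENCODE M21, and figures came from matplotlib 3.10.9.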

Additional observations from a re-analysis of the deposited data

How the results depend on the processing

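The count of 9 lower members was 5 with every gene of at least 1 count and 5 at an adjusted p under 0.01, and ran from 5 to 12 when 1 library was left out, lowest without LOXP3 or KO3 and highest without LOXP1. Lower calls over all genes moved too, from 1641 of 14151 in the complete fit to 1271 of 25004 with every gene of at least 1 count. With 1 library left out they ran from 1052 without KO2 to 1515 without LOXP1, and were 1208 without LOXP3 and 1148 without KO3. The count of 0 higher members was 1, Atp5f1a, on log2(FPKM + 1) and on log2(FPKM + 0.1), and ran from 0 to 1 with 1 library left out. The 2 members that met the study's criteria became 1 with at least 10 counts in every library, where Ndufa4l2 was not tested, and 1 on log2(FPKM + 1), and stayed at 2 with any library left out. The cause was not tested for the other changes. The remaining settings gave 7 to 12 lower members. The median log2 fold change of the members stayed below zero under every setting, from -0.08 to -0.02, and moved by less than its spread between libraries (0.0393).

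The replicate numbers were not shown to pair the libraries: deviations of same-numbered libraries correlated at 0.132, 0.0729 and 0.0256. LOXP1 correlated best with KO1 and LOXP2 with KO2, but LOXP3 also correlated best with KO2. With the replicate number as a block, 7 members were lower, 0 higher and 2 met the study's criteria, with a median of -0.05. Atp5mk and Cox7a2 were then not called (adjusted p = 0.0523 and 0.0508, edgeR).

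Over 594 fits of single named members under 17 settings, 558 kept their side of the threshold, 32 lost their call and 4 gained one. Direction was compared only for members called in the complete fit, and 0 of those values turned direction. At 3 libraries a group, the interval of the log2 fold change lay within 0.5 of no change on both sides for 78 of the 90 tested members. For those members, differences past 0.5 lay outside the interval. Smaller differences could pass the test, as for Cox7a2 at -0.19 (edgeR). Less can be read for members with few counts.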

Other observations

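Of the 99 members, 45 overlapped another listed gene by position and 25 a gene with a mean of at least 10 counts, among them 5 of the 9 called lower. Beyond the overlaps given with the called genes, Atp5pb lay over Wdr77, which was higher at 0.59 (adjusted p = 0.000982, edgeR), while Atp5pb itself stood at 0.01. Ndufaf2 overlapped Smim15, which was lower at -0.94 (adjusted p = 0.0329), beside -0.29 for Ndufaf2 (adjusted p = 0.0871). Ndufa11 overlapped Vmac, which was lower at -0.77 (adjusted p = 0.0118), beside -0.17 for Ndufa11. These genes were chosen after their values were seen, and the part of overlapping reads in any of these values was not tested. With near-identical copies summed into their parent genes, 9 members were lower, all of them among the 9 of the fit without summing.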
